A study of Mus musculus with 24 samples.

Results

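Wild-type microglia given fibronectin were set against wild-type microglia given the higher of the study's 2 doses of lipopolysaccharide (LPS). The 6 libraries of these groups were taken, by their labels, from the 24 in the series: WT FN replicates 1 to 3 and WT LPS 10 replicates 1 to 3. All 6 came from primary microglia of C57BL/6 mice labelled p0 and differ, per the labels, in the agent present for 3 h. WT FN cells had 100 µg/ml of mouse fibronectin and WT LPS 10 cells had 10 ng/ml of Re-LPS, the truncated LPS of rough bacterial mutants. Beside them stand untreated WT cells, WT cells with Re-LPS at 0.1 ng/ml, and the same treatments in CD14-deficient cells (KO, strain B6.129S4-Cd14tm1Frm/J), with 3 libraries in each of 8 groups. The series describes 3 independent cell preparations a condition, and the letters after the numbers in the library names are not explained. The labels do not say whether the fibronectin was tested for endotoxin or how pure the cultures were, and cultured microglia are a model of those in the brain.

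Fibronectin is a large glycoprotein that circulates in plasma and is laid down in tissue matrix. Cells hold on to it through integrins, and plasma fibronectin reaches the brain when the blood-brain barrier leaks. LPS is passed by CD14 to the complex of TLR4 and MD-2, which signals through MyD88 to NF-kB and through TRIF to IRF3, so that cytokine genes and then interferon-stimulated genes are transcribed. Fibronectin is also described as an activator of TLR4 in microglia, the resident macrophages of the brain. The comparison asks whether the mRNA response to the protein differed from that to LPS at 10 ng/ml, and how large a difference could have been missed.

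At 3 h, cytokine, chemokine and interferon-stimulated genes had a median log2 difference of fibronectin minus LPS of 0.05, 0.02 and 0.00. Most were within 2-fold of equal by a test of equivalence, and both results have the replicate number, taken as the cell preparation, in the model. Within the narrower bound of 1.5-fold were 6 of 22 cytokine, 4 of 20 chemokine and 14 of 42 interferon-stimulated genes, where 70% of all genes tested were. Without the preparation in the model, 13 cytokine, 6 chemokine and 23 interferon-stimulated genes were within 2-fold, and 69.3% of all genes tested. Il6, a cytokine of fever and the acute phase, averaged 616 CPM (read counts over the TMM-scaled size of each library) in both groups, from 0.43 CPM in untreated cells. Of 13294 genes tested, 0 were called different (0% of genes tested) by edgeR's quasi-likelihood test at a Benjamini-Hochberg adjusted p under 0.05, without and with the preparation in the model, and DESeq2 and limma without it also called 0. At an unadjusted p under 0.05 there were 105 genes (0.79%) without it and 504 (3.79%) with it. With the preparation in the model, 11539 genes (86.8%) were within 2-fold, among them all but 35 of the 9129 genes with a mean of at least 5 CPM. No gene at that level differed by 1.5-fold or more in 1 direction in all 3 pairs of libraries. The linker histone gene Hist1h1c was lower with fibronectin by at least 0.54 on the log2 scale in each pair, the largest such minimum among genes whose higher group reached 5 CPM.

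Total counts ran from 15499806 to 22143774 in the 6 libraries and from 14939019 to 22143774 in all 24. The 18 microglia markers listed, which include Csf1r and C1qb, summed to 19758 to 21737 CPM in the 6 libraries. Astrocyte markers (12 tested) summed to 33.9 to 96.6 CPM, oligodendrocyte lineage markers (13) to 226 to 499 CPM, neuron markers (11) to 11.7 to 59.1 CPM, vascular and fibroblast markers (7) to 84.6 to 150 CPM, and markers of other leukocytes (4) to 1.39 to 5.02 CPM. The minor cell types went with the library number: the astrocyte sum was 36.6, 96.2 and 48.4 CPM in WT FN replicates 1, 2 and 3 and 33.9, 96.6 and 43.5 CPM in WT LPS 10 replicates 1, 2 and 3. Cd14 had 2177 to 5329 CPM in the 6 WT libraries and 3.32 to 6.37 CPM in the 6 KO libraries with the same stimuli, which checks the genotype labels. In cultures, fewer cells of a type and less RNA per cell cannot be told apart.

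One library stood apart in its RNA classes. Rn45s, the precursor of ribosomal RNA, took 5.92% of the counts of WT LPS 10 replicate 3 (95% Wilson score interval 5.91% to 5.94%, which covers counting error only) and 0.0346% to 0.155% in the other 5 libraries. Rmrp, the RNA of RNase MRP, moved with it, with log2 differences of fibronectin minus LPS of 1.09, 0.21 and -6.23 in pairs 1, 2 and 3. Rpph1, the RNA of RNase P, had -0.67, 1.95 and -6.69. Lars2, which encodes the mitochondrial leucyl-tRNA synthetase, had -0.27, 0.50 and -4.97. With Rn45s itself, at -0.28, 0.54 and -5.32, these were the only 4 genes of at least 5 CPM with a fitted difference over 2-fold, and none was called. Leaving Rn45s out before library sizes were set gave 0 calls again and 9213 genes within 2-fold in the fit without preparation, against 9212 with it in.

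Libraries differed more by replicate number than by stimulus. Between the fibronectin and the LPS library of the same number, the median gene of at least 5 CPM differed by 0.0947 (number 1), 0.0893 (number 2) and 0.109 (number 3) on the log2 scale, and 7, 29 and 32 of 9129 genes differed by over 2-fold. Between libraries of the same stimulus and different numbers, the median difference was 0.210 to 0.271, and 310 to 809 genes differed by over 2-fold. Each of the 3 pairs that shared a number and not a stimulus was thus closer than each of the 6 pairs that shared a stimulus and not a number. The paired libraries were not copies of each other: the median chi-square per gene was 1.05 to 1.37 within pairs, where read sampling alone gives 0.455, and 5.11 to 8.80 between preparations of the same stimulus.

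**Figure D1:**
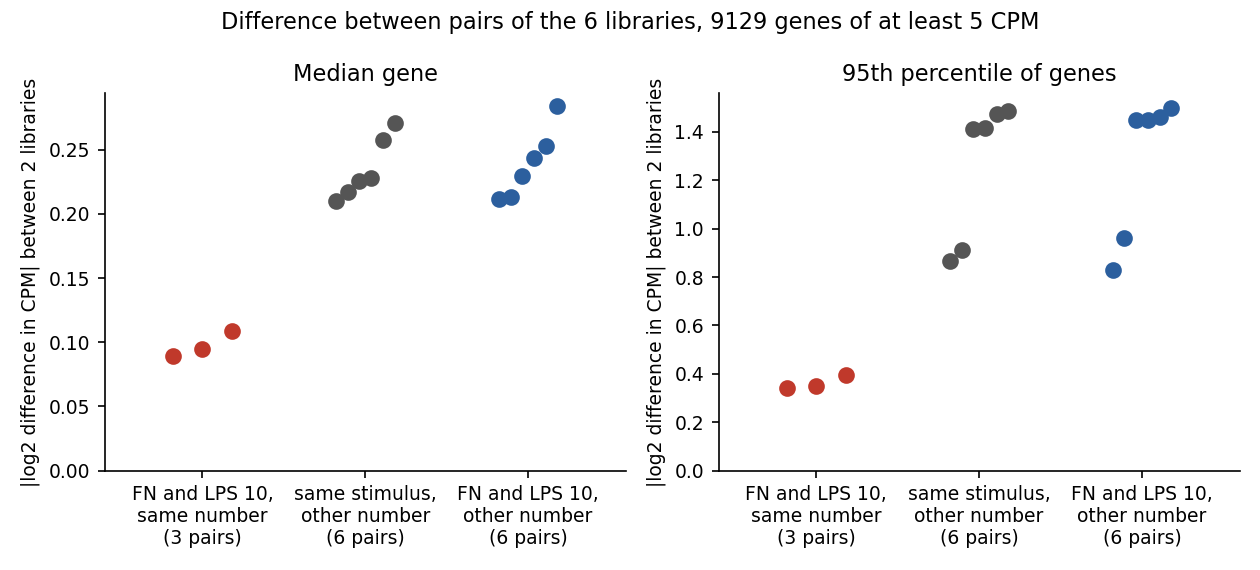
Difference between every pair of the 6 libraries in the median gene (left) and at the 95th percentile of genes (right), on the absolute log2 scale, by whether the pair shared a replicate number, a stimulus or neither; each point is 1 pair of libraries over 9129 genes. The 3 pairs of fibronectin and LPS 10 libraries with the same number lie at 0.0893 to 0.109 for the median gene, below all the other pairs.

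In a principal component analysis of the 6 libraries the first component held 83.1% of the variance and separated number 1 from numbers 2 and 3. The second held 12.9% and separated number 2 from number 3. Stimuli lay apart on neither: on the first, WT FN replicates stood at -62.7, 29.3 and 32.3 and WT LPS 10 replicates at -62.5, 30.4 and 33.3. The third held 1.94%, and there WT FN replicates stood at 1.12, -0.25 and 12.4. WT LPS 10 replicates stood at -1.20, -1.34 and -10.8 on it, below all 3 WT FN replicates, with the widest gap in number 3. On the first and second components the same-numbered libraries thus deviated together, although the series calls the preparations independent. The replicate number was therefore used as a preparation in a second fit, and differences below are from that fit unless stated. Responses against untreated cells, differences in CD14-deficient cells and changes between genotypes are from the fit without preparation, unless stated. Libraries of the same number and the other genotype also deviated together, with r of 0.261 to 0.901 over 9582 genes. A batch shared by the genotypes cannot be told apart from the cell preparation here, and preparation below stands for the replicate number.

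Preparation 1 stood apart in ribosomal protein mRNAs. The 26 cytosolic ribosomal protein mRNAs summed to 9191 CPM in WT FN replicate 1 and 9318 CPM in WT LPS 10 replicate 1, but to 3539, 3661, 3734 and 3998 CPM in the others. Gapdh, the glycolytic enzyme often used as a reference gene, had 61.6 and 58.5 CPM in the libraries numbered 1 and 1.01 to 2.11 CPM in the other 4. These genes have near-identical copies, and how reads that match several copies were counted is not given in the sources used here, so their levels are uncertain. With the preparation in the model the ribosomal protein list had a median difference of 0.06 between the stimuli, and all 26 were within 2-fold. Without the preparation, 5 of the 26 were.

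Inflammatory cytokine genes had a median log2 response of 6.69 to LPS and 7.53 to fibronectin, and chemokine genes one of 7.38 and 7.43. The gap for cytokines lies between medians that can fall on different genes. Taken gene by gene in the same fit, without preparation, the median difference was 0.07 for cytokine and 0.06 for chemokine genes. Tnf, which encodes tumour necrosis factor, had 9134, 7198 and 6093 CPM in WT FN replicates 1, 2 and 3 and 7401, 6164 and 6379 CPM in WT LPS 10 replicates 1, 2 and 3, from 26.2 ± 12.6 CPM in untreated cells (SD over 3 libraries). Fibronectin was the higher in pairs 1 and 2 and the lower in pair 3, and the groups overlapped. The fitted ratio was 1.09 with a 95% interval of 0.713 to 1.66, and edgeR's adjusted equivalence p was 0.00524.

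Il6 had 669, 485 and 694 CPM with fibronectin and 583, 497 and 769 CPM with LPS. Its difference was -0.02 ± 0.42 on the log2 scale (SE) and its pairs lay on both sides of equal. Il1b, the precursor of interleukin-1 beta, had 5380, 3977 and 5352 CPM with fibronectin and 5020, 3696 and 7120 CPM with LPS. The highest of its 6 values was the LPS library of number 3. Il12b, the shared subunit of interleukins 12 and 23, had 3228, 2708 and 1667 CPM against 2919, 2574 and 1727 CPM. Preparation 1 was highest and preparation 3 lowest under both agents.

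Of 22 cytokine genes tested, 0 were called, 19 were within 2-fold, 6 within 1.5-fold, and the median difference was 0.05, against 0.01 over all genes tested. In all 3 pairs 4 were higher (16% of all genes) and 0 lower (14.1% of all genes) with fibronectin. The 3 that were not held within 2-fold were the colony-stimulating factor genes Csf2 and Csf3 and the gene Lif, all at low levels. Lif, a cytokine of the interleukin-6 family, had 21.4, 17.9 and 6.06 CPM with fibronectin and 9.33, 10.6 and 6.15 CPM with LPS. Its pairs 1 and 2 were higher with fibronectin and pair 3 was level, which gave a difference of 0.70 ± 0.26, the largest positive one among genes of at least 5 CPM. Il10, the cytokine that restrains inflammation, was low with both agents at 3.90 to 5.51 CPM with fibronectin and 3.14 to 6.34 CPM with LPS.

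Ifnb1, which encodes interferon beta and is driven through TRIF and IRF3, had 199, 153 and 166 CPM with fibronectin and 214, 185 and 133 CPM with LPS. Untreated cells had 0.05 CPM. The difference was -0.01 ± 0.21, with an interval from -0.46 to 0.43. Cxcl10, a chemokine gene that answers to both NF-kB and interferon factors, had 15045, 10494 and 15857 CPM with fibronectin and 13772, 11008 and 15309 CPM with LPS. Preparation 2 was lowest under both agents. Its promoter is shown because it joins both kinds of site, beside that of Il6 and of Ifit1, which stand for the NF-kB and the interferon arm; each run is the 250 bases before the RefSeq start (GRCm38.p6), 5′ to 3′ on the gene's strand, and capitals mark matches to the kB consensus or to the interferon response element GAAANNGAAA on either strand.

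Cxcl10, chr5:92348890-92349139, minus strand: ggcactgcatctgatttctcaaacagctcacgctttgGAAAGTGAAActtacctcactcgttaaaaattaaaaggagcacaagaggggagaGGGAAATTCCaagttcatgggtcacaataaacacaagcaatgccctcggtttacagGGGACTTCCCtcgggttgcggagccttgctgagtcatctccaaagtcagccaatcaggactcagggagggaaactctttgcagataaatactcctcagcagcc

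Il6, chr5:30012864-30013113, plus strand: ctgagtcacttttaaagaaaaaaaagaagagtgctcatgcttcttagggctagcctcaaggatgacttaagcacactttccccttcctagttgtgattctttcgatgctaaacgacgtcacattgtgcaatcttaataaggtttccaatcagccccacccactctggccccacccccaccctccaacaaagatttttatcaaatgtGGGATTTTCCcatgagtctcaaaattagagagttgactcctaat

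Ifit1, chr19:34640639-34640888, plus strand: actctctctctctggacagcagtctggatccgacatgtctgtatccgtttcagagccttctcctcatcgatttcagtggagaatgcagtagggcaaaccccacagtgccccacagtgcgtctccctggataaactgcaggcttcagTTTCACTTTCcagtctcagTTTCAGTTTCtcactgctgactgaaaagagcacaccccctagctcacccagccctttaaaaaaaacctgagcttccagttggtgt

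The Cxcl10 window held kB matches at 159 to 150 and 103 to 94 bases before the start and an interferon element at 213 to 204. The Il6 window held a kB match at 44 to 35 bases before the start. In the Ifit1 window both elements, at 104 to 95 and 85 to 76 bases, lie on the opposite strand and so read TTTCACTTTC and TTTCAGTTTC. Over 32851 RefSeq windows of this length, 3.9% held a kB match and 2.98% an interferon element. A match is a description of the letters and not a measured site.

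All 42 interferon-stimulated genes tested were within 2-fold and 14 within 1.5-fold, with a median difference of 0.00 and a range from -0.17 to 0.25. The list's median was 0.09, -0.19 and 0.07 in pairs 1, 2 and 3, so that preparation 2 alone leaned to LPS. Ifit1, which encodes an RNA-binding antiviral protein, had 5627, 4466 and 5831 CPM with fibronectin and 5857, 4938 and 6098 CPM with LPS. It was lower with fibronectin in all 3 pairs by a difference of -0.09 ± 0.35. Rsad2, the antiviral protein viperin, had 18163, 16731 and 18209 CPM against 17612, 18054 and 17554 CPM, and was among the most abundant mRNAs of these cells. Bst2, the virus tether tetherin, had 375, 369 and 529 CPM against 336, 359 and 416 CPM and was higher with fibronectin in each pair, by 0.19 ± 0.18.

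Of 20 chemokine genes tested, 18 were within 2-fold and 4 within 1.5-fold, and the median difference was 0.02. In all 3 pairs 4 were higher (16% of all genes) and 1 lower (14.1% of all genes) with fibronectin. Ccl3 and Ccl4, which draw monocytes and T cells, averaged 7823 and 7924 CPM with fibronectin against 7268 and 7447 CPM with LPS. Ccl5, a T cell chemokine of the later response, had 2682, 1570 and 2241 CPM against 2237, 1786 and 2375 CPM. Cxcl1, which recruits neutrophils, had 271, 156 and 97.9 CPM against 198, 99.1 and 165 CPM: higher with fibronectin in pairs 1 and 2, lower in pair 3. Cx3cl1, the membrane-bound ligand of CX3CR1, had 51.1, 23.2 and 53.1 CPM against 56.1, 34.3 and 62.6 CPM and was the 1 chemokine lower in all 3 pairs, by -0.29 ± 0.19.

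**Figure D2:**
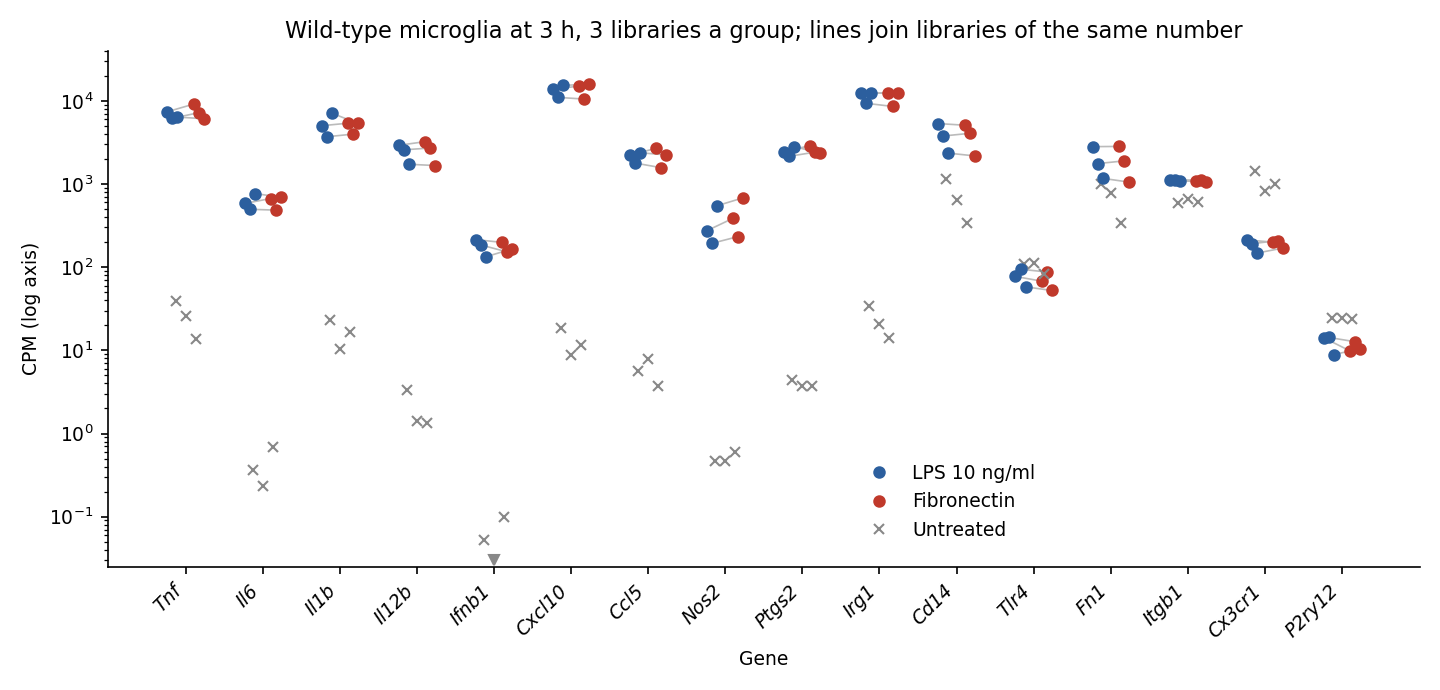
Expression in CPM (log axis) of 16 genes in each library of wild-type microglia: LPS 10 ng/ml, fibronectin and untreated cells; grey lines join the LPS and fibronectin libraries of the same number, and the triangle marks a library listed at 0. The LPS and fibronectin points of a gene cover the same range while untreated Tnf, Il6 or Cxcl10 lies lower by 2 orders of magnitude or more.

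Of 19 genes of nitric oxide, prostanoids and immune metabolism, 3 were higher (16% of all genes) and 2 lower (14.1% of all genes) with fibronectin in all 3 pairs. Nos2, the inducible nitric oxide synthase, had 388, 234 and 684 CPM with fibronectin and 275, 194 and 548 CPM with LPS. Fibronectin was higher in each pair, by 0.50, 0.27 and 0.32, though the groups overlapped because preparation 3 was high under both agents. The fitted difference was 0.36 ± 0.39 with an interval from -0.48 to 1.20, so that neither a difference nor closeness within 2-fold was shown. Ptgs2, the cyclooxygenase of prostaglandin synthesis, had 2900, 2420 and 2339 CPM against 2456, 2152 and 2821 CPM, and its difference was 0.00 ± 0.42. Irg1, which makes itaconate, had 12465, 8560 and 12391 CPM against 12286, 9337 and 12378 CPM. On this list 17 genes were within 2-fold and 12 within 1.5-fold, and the median difference was 0.01.

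Among NF-kB genes and their inhibitors, small differences were more often higher than lower with fibronectin. Of 31, 30 were within 2-fold and 25 within 1.5-fold, 11 were higher in all 3 pairs and 3 lower, where 16% of all genes tested were higher and 14.1% lower in all 3 pairs. All 31 had a mean of at least 5 CPM, and abundant genes in general leaned the same way. Of 2407 genes at 100 CPM and over, 533 were higher and 259 lower in all 3 pairs. The lean of this list was not separated from that of its level. The median difference was 0.04 and 0 were called. Nfkb1, which encodes the p105 precursor of p50, had 2078, 1584 and 1690 CPM with fibronectin and 1902, 1540 and 1682 CPM with LPS. Nfkbid, a nuclear IkB protein, had 104, 97.5 and 68.2 CPM against 85.1, 84.3 and 63.4 CPM, a difference of 0.20 ± 0.09. Tnfaip3, the deubiquitinase A20 that limits the pathway, had 4377, 3553 and 3890 CPM against 3919, 3459 and 4015 CPM. Socs1, a brake on cytokine receptors, was the 1 member not held within 2-fold. Tnip3, an inhibitor that works with A20, went the other way with 117, 124 and 148 CPM against 133, 143 and 159 CPM.

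Receptors and adaptors of the pathway were level. All 24 genes of TLR4 reception and signalling were within 2-fold and 23 within 1.5-fold, where 70% of all genes tested were within 1.5-fold, with a median of 0.01. Tlr4 had 67.9, 87.5 and 52.4 CPM with fibronectin and 77.3, 94.5 and 58.0 CPM with LPS. It was lower with fibronectin in all 3 pairs by -0.15 ± 0.16, less than its spread between preparations. Cd14 had 5089, 4063 and 2177 CPM against 5329, 3779 and 2349 CPM. Its difference was -0.03 ± 0.13, while preparations 1 and 3 differed by over 2-fold under both agents. Tlr2, the receptor for bacterial lipoproteins, had 3897, 3375 and 2783 CPM against 3710, 3116 and 2802 CPM.

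Among integrins and other genes that bind fibronectin, small differences were more often lower than higher with fibronectin. Of 21 tested, 7 were lower in all 3 pairs (14.1% of all genes) and 1 higher (16% of all genes). None of the 21 was called, 19 were within 2-fold and 16 within 1.5-fold, and the median was -0.02. Itgb1, the beta chain of most fibronectin receptors, had 1093, 1112 and 1066 CPM with fibronectin and 1106, 1120 and 1090 CPM with LPS, an interval from -0.20 to 0.16. Itga5, its partner in the classical fibronectin receptor, had 1301, 1140 and 1168 CPM against 1226, 1028 and 1117 CPM and was the 1 member higher in all 3 pairs, by 0.10 ± 0.09. Itgav, the chain of the vitronectin receptors that also take fibronectin, had 2059, 1605 and 1256 CPM against 2015, 1524 and 1416 CPM. Sdc4, a heparan sulfate proteoglycan that binds fibronectin beside integrins, had 5607, 3938 and 3149 CPM against 5811, 4578 and 3734 CPM, lower in each pair by a difference of -0.18 ± 0.26. Fn1, the cells' own fibronectin mRNA, had 2829, 1894 and 1054 CPM against 2812, 1759 and 1170 CPM.

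Of 32 genes of focal adhesions and their signalling, 0 were called, 30 were within 2-fold and 28 within 1.5-fold, with a median of 0.02. Parvb, the integrin-linked kinase partner beta-parvin, had 171, 145 and 139 CPM with fibronectin and 163, 122 and 131 CPM with LPS, a difference of 0.13 ± 0.07. Fermt3, the integrin activator kindlin-3, had 298, 335 and 235 CPM against 276, 314 and 197 CPM. Of 17 target genes of SRF and YAP, which read actin tension, 16 were within 2-fold and 14 within 1.5-fold. In all 3 pairs 4 were lower (14.1% of all genes) and 0 higher (16% of all genes). Vcl, which encodes vinculin, had 39.6, 40.5 and 27.5 CPM against 40.9, 46.1 and 30.1 CPM. Actb, the cytoplasmic actin, had 8926, 5302 and 3983 CPM against 8823, 5706 and 4000 CPM.

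Of 27 matrix and protease genes, 23 were within 2-fold and 16 within 1.5-fold, with a median of 0.07. Plau, the urokinase that activates plasmin, had 552, 697 and 285 CPM with fibronectin and 463, 541 and 230 CPM with LPS. It was higher with fibronectin by a like step in each pair, 0.25, 0.36 and 0.31, while preparations differed by more than that. Mmp13, a collagenase, had 5320, 4528 and 7475 CPM against 4128, 4296 and 6632 CPM, also higher in each pair. Of 19 TGF-beta targets, 18 were within 2-fold and 12 within 1.5-fold.

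Among markers of resting microglia, 23 of 24 were within 2-fold and the median was 0.03. Cx3cr1, the fractalkine receptor, had 200, 208 and 170 CPM with fibronectin and 212, 192 and 148 CPM with LPS, from 1088 ± 321 CPM in untreated cells. P2ry12, the purine receptor of surveying microglia, had 9.83, 12.7 and 10.4 CPM against 14.1, 14.3 and 8.91 CPM. Tmem119, another resident microglia marker, was the 1 not held within 2-fold: 8.78, 4.37 and 8.01 CPM against 10.9, 4.79 and 13.1 CPM, lower in each pair by -0.42 ± 0.41.

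Cholesterol synthesis had the lowest median of the lists with 10 or more genes of at least 5 CPM, -0.08, and all 24 of its genes were within 1.5-fold. Of these, 7 were lower in all 3 pairs, Sqle, Cyp51 and Insig1 among them, and 1, Fdps, was higher. Over all genes tested 14.1% were lower and 16% higher. On this list 33.3% had 1 sign in all 3 pairs, close to the 30% of all genes. Sqle, the squalene epoxidase, had 29.8, 20.63 and 27.1 CPM with fibronectin and 33.5, 20.65 and 31.3 CPM with LPS, a difference of -0.13 ± 0.10. Its pair 2 was all but level. Of the 12 genes of cholesterol export and oxysterols, 4 were higher (16% of all genes) and 1 lower (14.1% of all genes) in all 3 pairs. Ch25h, which makes 25-hydroxycholesterol, had 3924, 3514 and 2824 CPM against 3363, 2964 and 2455 CPM, higher by 0.22 ± 0.34. Abcg1, a cholesterol exporter, had 40.3, 95.2 and 45.8 CPM against 33.1, 83.6 and 31.2 CPM.

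Of the 13294 genes tested, 2123 (16%) were higher with fibronectin in all 3 pairs and 1869 (14.1%) lower. The balance went with the level: at 100 CPM and over 533 were higher and 259 lower, at 20 to 100 CPM 699 and 532, at 5 to 20 CPM 388 and 462, at 1 to 5 CPM 296 and 370, and under 1 CPM 207 and 246. A step of at least 1.1-fold in every pair was seen in 150 genes of at least 5 CPM upward and 130 downward (3.07% of 9129), a step of at least 1.25-fold in 8 and 6, and one of 1.5-fold in 0. Across these genes the difference in one pair followed that in another only loosely, with Pearson's r of 0.170, 0.0701 and 0.0608 for the 3 choices of pairs; the points are genes of the same libraries and not independent. The 3 fibronectin libraries lay wholly above the 3 LPS libraries for 207 genes (1.56%) and wholly below for 226 (1.7%).

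Hist1h1c, which encodes the linker histone H1.2, was first among the genes lower with fibronectin. It had 46.7, 41.2 and 64.3 CPM in WT FN replicates 1, 2 and 3 and 73.3, 59.8 and 97.3 CPM in WT LPS 10 replicates 1, 2 and 3, against 101 ± 14.2 CPM in untreated cells. The pairs differed by -0.65, -0.54 and -0.60, a narrower spread than between preparations, and the fitted difference was -0.59 ± 0.11 with an interval from -0.82 to -0.37. The equivalence test placed it within 2-fold (edgeR, adjusted p = 0.000847) and the interval lies off 0, so the fitted ratio ran from 0.568 to 0.773. It was not called over all genes (adjusted p = 0.31 with the preparation in the model, unadjusted p = 2.33e-05). The histone genes are a family of like copies, and its promoter is shown with its H1 box, AAACACA, in capitals.

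Hist1h1c (RefSeq H1f2), chr13:23738557-23738806, plus strand: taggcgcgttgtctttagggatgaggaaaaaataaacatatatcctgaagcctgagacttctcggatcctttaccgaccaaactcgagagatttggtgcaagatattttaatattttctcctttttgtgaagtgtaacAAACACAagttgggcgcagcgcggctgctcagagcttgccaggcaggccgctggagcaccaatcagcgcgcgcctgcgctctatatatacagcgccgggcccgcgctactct

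The box lies at 112 to 106 bases before the start, and 6.25% of the 32851 windows hold these letters on either strand.

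When the 6 libraries were fitted alone with the preparation as a block, 16 of 11687 genes were called (0.137%), 11 higher and 5 lower with fibronectin. In this fit 1082 had an unadjusted p under 0.05, a larger share than the 0.05 that equal groups would give. The fits of 24 libraries lay below that share, at 0.79% without and 3.79% with the preparation. The fit of 6 libraries leaves 2 residual degrees of freedom and leans on the spread borrowed across genes. Of the other fits, DESeq2 with the preparation nested in genotype called 1 gene, Hist1h1c (adjusted p = 0.0103), and every other fit of this comparison called 0. The other 15 were thus called in 1 fit only. Hist1h1c was at -0.60 ± 0.06 there (edgeR, adjusted p = 9.63e-05), and the others had adjusted p of 0.00678 to 0.0443.

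Among the 11 higher was Dusp4. This gene, a phosphatase that switches off MAP kinases, had 22.9, 45.4 and 17.4 CPM with fibronectin and 15.9, 25.3 and 13.04 CPM with LPS. The pairs differed by 0.53, 0.84 and 0.42 although the groups overlapped. Sphk1, which makes sphingosine 1-phosphate, had 26.0, 20.9 and 9.83 CPM against 13.9, 15.3 and 7.71 CPM. Cebpb, a transcription factor of macrophage activation, had 165, 149 and 120 CPM against 138, 113 and 78.0 CPM, and preparation 3 gave the largest step, 0.62. Kcna3, the voltage-gated potassium channel Kv1.3, had 67.7, 74.3 and 37.5 CPM against 57.9, 51.2 and 28.3 CPM.

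Slc24a6, a mitochondrial sodium and calcium exchanger gene, had 47.8, 51.5 and 38.9 CPM against 34.9, 36.3 and 26.5 CPM. Here all 3 fibronectin libraries lay above all 3 LPS libraries and below the untreated mean of 86.3 CPM. The other 6 were Nos2 and Plau, given above, Slco4a1, an organic anion transporter, Galnt6, which starts O-glycosylation, Zfp335 and Wdr91. Slco4a1 had 81.2, 73.4 and 48.8 CPM against 48.1, 41.9 and 41.3 CPM, with the step in pair 3 smaller than in the other pairs.

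Of the 5 lower, Rnd1 and Rnd3 encode atypical small GTPases that loosen stress fibres. Rnd1 had 395, 161 and 373 CPM with fibronectin and 445, 214 and 483 CPM with LPS. Rnd3 had 38.2, 33.1 and 49.95 CPM against 52.5, 54.3 and 61.6 CPM, with all 3 fibronectin libraries below the LPS libraries. Both stood far above the untreated level under either agent, with log2 responses of 8.12 and 8.42 for Rnd1 and of 4.70 and 5.17 for Rnd3 to fibronectin and to LPS. Ddx60, an interferon-stimulated helicase, had 95.9, 97.8 and 223 CPM against 118, 156 and 285 CPM. It was lower in each pair while the interferon-stimulated list as a whole had a median of 0.00. Mfsd9, a transporter of the major facilitator family, had 11.8, 12.2 and 12.2 CPM against 16.6, 20.2 and 15.1 CPM.

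**Figure D3:**
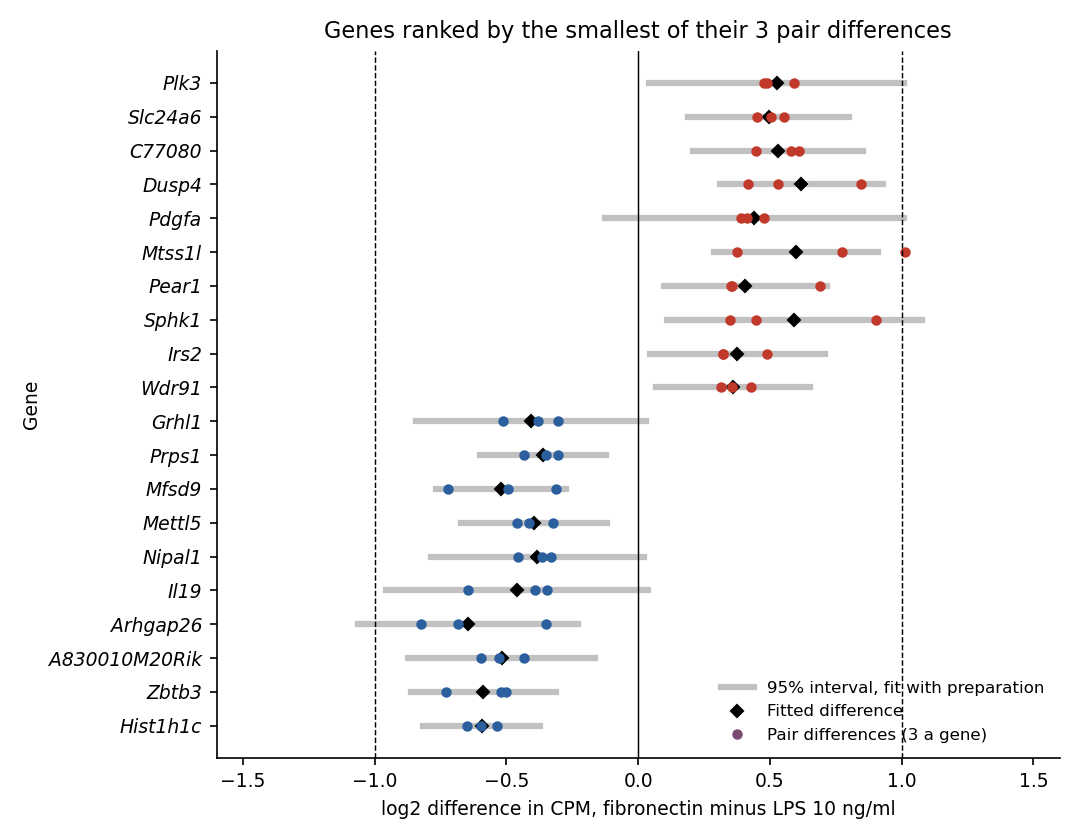
The 10 genes highest and the 10 lowest in fibronectin against LPS 10 ng/ml among those whose higher group reached 5 CPM, ranked by the smallest of their 3 pair differences; round points are the pairs, diamonds the fitted log2 difference with the preparation in the model, grey bars its 95% interval and dashed lines 2-fold. Every point lies on 1 side of 0 by the way the genes were ranked, and Hist1h1c has pairs between -0.65 and -0.54.

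Ranking genes whose higher group reached 5 CPM by the smallest of their 3 pair differences gave Plk3, Slc24a6, C77080, Dusp4, Pdgfa, Mtss1l, Pear1, Sphk1, Irs2 and Wdr91 at the top and Hist1h1c, Zbtb3, A830010M20Rik, Arhgap26, Il19, Nipal1, Mettl5, Mfsd9, Prps1 and Grhl1 at the bottom. Their shared sign is the rule that chose them and supports nothing. Plk3, a stress-response kinase, had 9.90, 10.7 and 4.91 CPM with fibronectin and 7.10, 7.11 and 3.49 CPM with LPS. Pdgfa, a platelet-derived growth factor chain, had 9.90, 11.4 and 22.5 CPM against 7.43, 8.68 and 16.2 CPM. Irs2, an adaptor of insulin receptors, had 21.7, 23.4 and 11.2 CPM against 17.3, 16.7 and 8.998 CPM.

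At the other end, Il19, a cytokine of the interleukin-10 family, had 8.99, 9.48 and 6.73 CPM with fibronectin and 11.8, 12.1 and 10.6 CPM with LPS. Its groups did not overlap, and untreated cells had 0.02 CPM. Nipal1, a magnesium transporter, had 10.5, 11.3 and 10.2 CPM against 13.5, 14.2 and 14.1 CPM, also without overlap. Zbtb3, a zinc finger gene, had 5.92, 4.59 and 4.91 CPM against 8.51, 6.51 and 8.17 CPM.

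How small a difference could be seen depended on the level. The median 95% half-width of a difference with the preparation in the model was 1.15 on the log2 scale under 1 CPM, 0.56 at 1 to 5 CPM, 0.28 at 5 to 20 CPM, and 0.18 at 20 to 100 CPM and at 100 CPM and over. Without the preparation it was 1.93, 0.91, 0.45, 0.35 and 0.38. Within 2-fold were 19.1%, 89.0%, 99.2%, 99.9% and 99.7% of genes in these bins with the preparation, and 9212 genes in all (69.3%) without it. Under 1 CPM these were 346 of 1808 genes, and for the rest neither a difference nor closeness within 2-fold was shown at this depth.

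The fit shares 1 spread per gene over all groups, and some strong responders had wide intervals. Of the 35 genes of at least 5 CPM not held within 2-fold, several are LPS-induced, among them Saa3, C3, Cxcl9, Socs1 and Nos2. Saa3, an acute-phase protein gene, had a difference of -0.17 ± 0.65 and C3, the central complement protein, one of 0.23 ± 0.59. Their bounds came from spread and not from a large difference. Of 354 genes that rose over 16-fold with LPS, 314 (88.7%) were within 2-fold between the agents, with a median difference of 0.00. Without the preparation in the model, 128 of the 354 (36.2%) were within 2-fold. In the 274 of them with a mean of at least 5 CPM, the 5th and 95th percentiles of the difference with the preparation were -0.27 and 0.26. Of 76 genes that fell over 16-fold, of which 10 had a mean of at least 5 CPM, 16 (21.1%) were within 2-fold, with a median of 0.22, and 20 were higher and 5 lower with fibronectin in all 3 pairs. Both sets were chosen by the LPS libraries that enter the difference, so its direction in them supports nothing.

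**Figure D4:**
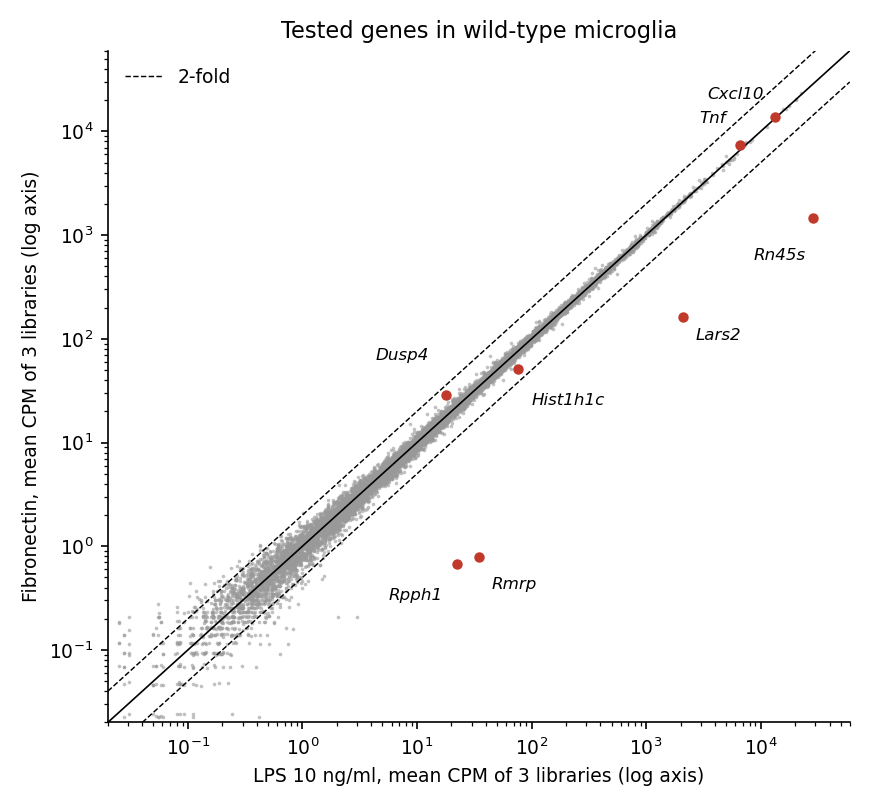
Mean CPM of the 3 WT LPS 10 libraries (x) against the 3 WT FN libraries (y) for the genes tested, on log axes, with a solid line of equal level and dashed lines at 2-fold; genes at 0 in a group or under 0.02 CPM are not drawn. Away from the low levels the genes keep to the line, and Rn45s, Lars2, Rmrp and Rpph1 fall below it.

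Both agents were set against the same untreated libraries, so their responses share controls and are given side by side. With LPS 6570 genes were called (49.4% of genes tested, no preparation in the model), 3097 higher and 3473 lower, and with fibronectin 6670 (50.2%), 3153 higher and 3517 lower. Tnf rose by 7.99 on the log2 scale with LPS and 8.16 with fibronectin. The cytokine list had a median response of 6.69 to LPS and 7.53 to fibronectin, the interferon-stimulated list 5.71 and 5.78, and the NF-kB list 3.48 and 3.54. For cytokines the median of the gene-by-gene differences was 0.07 in this fit, far less than the gap between these medians. Cx3cr1 fell by 2.56 with LPS and 2.50 with fibronectin. With RLE scaling the split of calls turned to 3382 higher and 3231 lower for LPS and 3382 higher and 3285 lower for fibronectin.

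The dose of LPS that fibronectin resembled was the higher one. Against LPS at 0.1 ng/ml, fibronectin differed in 4365 genes (32.8%), 2030 higher and 2335 lower, and in 7781 (58.5%) with the preparation in the model. Tnf averaged 1329 CPM, Il6 22.7 CPM, Ifnb1 5.44 CPM and Cxcl10 3080 CPM at 0.1 ng/ml. All 4 stood between the untreated level and the level with fibronectin.

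In CD14-deficient cells the same 2 agents were no longer level. FN and LPS 10 differed in 2258 genes there (17%), 1004 higher and 1254 lower with fibronectin, by edgeR without preparation. The difference of FN minus LPS 10 itself differed between KO and WT in 784 genes (5.9%), 238 upward and 546 downward. Without WT LPS 10 replicate 2 that count was 410, without WT FN replicate 1 it was 438, without KO LPS 10 replicate 1 it was 450 and without KO FN replicate 2 it was 488. KO FN against KO LPS 10 gave 1479 genes without KO FN replicate 2 and 1492 without KO LPS 10 replicate 1. With the preparation in the model the counts were 5952 (44.8%) and 3688 (27.7%).

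Tnf had 1543, 941 and 1375 CPM in KO FN replicates 1, 2 and 3 and 6929, 5036 and 6862 CPM in KO LPS 10 replicates 1, 2 and 3, so the LPS levels overlapped those of WT cells and the fibronectin levels lay below them. In the fit without preparation the difference was -2.29 in KO cells and 0.17 in WT cells. The change between genotypes in that fit was -2.46 ± 0.60 (edgeR, adjusted p = 0.0218). Il6 had 2.98, 1.02 and 2.88 CPM against 336, 151 and 109 CPM in KO cells. Its change between genotypes was -6.45 ± 0.76 (adjusted p = 0.000388). Cxcl10 had 232, 182 and 65.4 CPM against 5182, 3721 and 1156 CPM.

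In KO cells most genes of the inflammatory lists were lower with fibronectin than with LPS. Of 42 interferon-stimulated genes, 37 were called lower with fibronectin than with LPS in KO cells, with a median of -3.32, where 9.43% of all genes were called lower. In 33 the difference between genotypes was itself called downward, as in 4.11% of all genes. Of 22 cytokine genes 21 were called lower, with a median of -3.54 and 16 called between genotypes, and of 20 chemokine genes 16, with a median of -3.22 and 11 called between genotypes. The NF-kB list had 27 of 31 lower with a median of -1.21 and 18 called between genotypes. Cx3cr1 went the other way, at 1103, 1082 and 981 CPM with fibronectin and 311, 407 and 326 CPM with LPS in KO cells.

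Few lysosomal and cholesterol genes were called here. Of 24 lysosomal genes and of 24 cholesterol synthesis genes, 0 differed between genotypes in this way, where 5.9% of all genes did. In lists of 24 genes a count of 0 is near that share. Between the agents in KO cells 0 of the lysosomal and 1 of the cholesterol genes differed, where 17% of all genes did. The fibronectin receptor genes had 2 called higher (7.55% of all genes) and 4 lower of 21 in KO cells, among them Itgav, with 507, 386 and 718 CPM against 1318, 1021 and 1593 CPM. Of the genes with small one-sided differences in WT cells, Hist1h1c and Dusp4 did not pass the test of a change between genotypes (edgeR, adjusted p = 0.758 and 0.564). Sphk1 and Irs2 did, at -3.58 ± 0.93 and -2.45 ± 0.43. Il19, Nipal1 and Grhl1 passed too, at -5.95, -3.76 and -2.37, as did Mfsd9 at 1.04. These genes were ranked by their WT difference, which itself enters the change between genotypes.

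**Figure D5:**
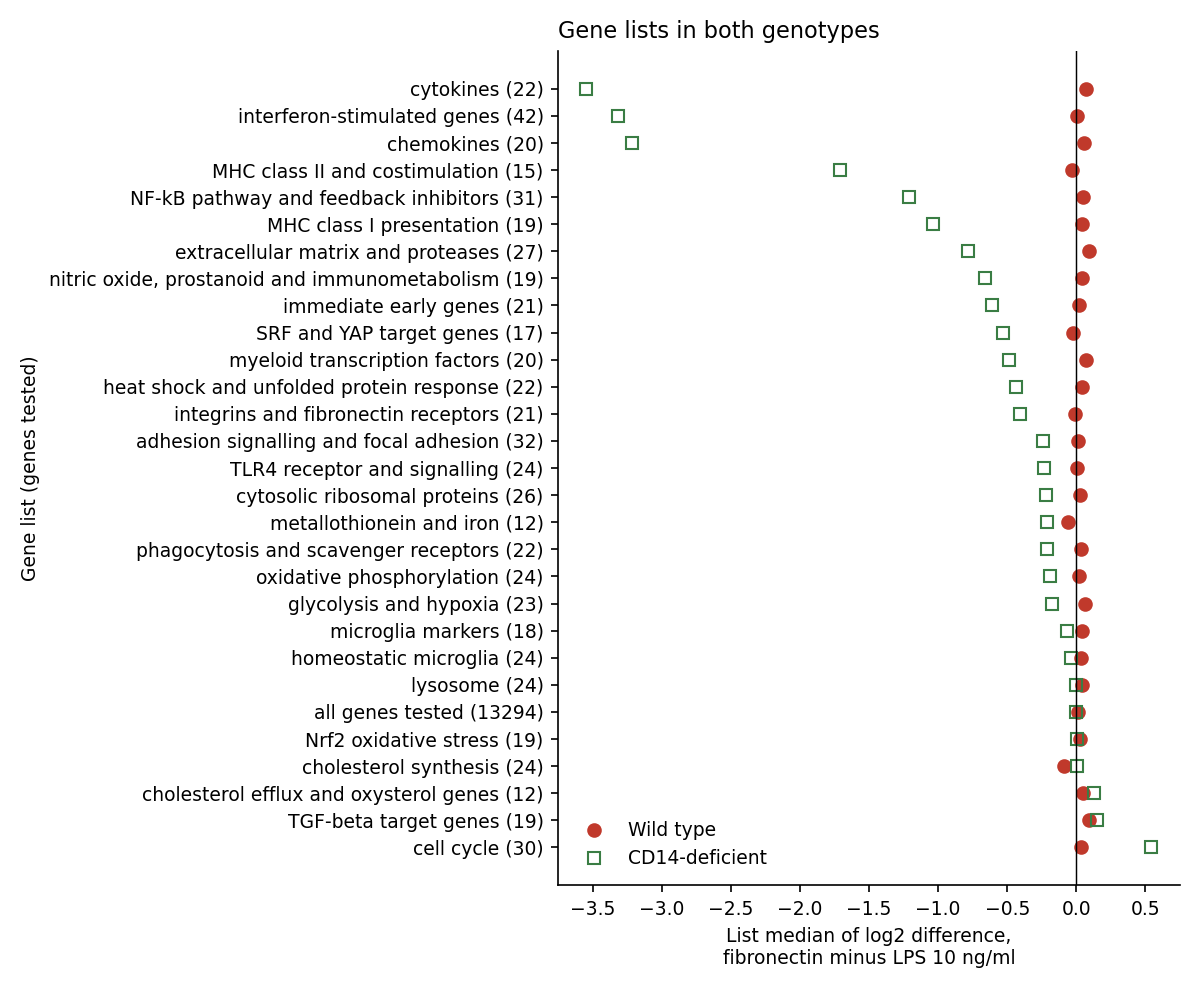
Median log2 difference of fibronectin minus LPS 10 ng/ml over each gene list with at least 10 genes of 5 CPM or more, in wild-type (filled circles) and CD14-deficient cells (open squares), from the fit without preparation; numbers in brackets are genes tested. Wild-type medians lie between -0.09 and 0.09, and those of CD14-deficient cells reach -3.54 for cytokines.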

How the data were processed

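Whole read counts of 18919 genes in 24 libraries were deposited, with a table of 12889 genes whose signal the authors made by dividing the counts by 1 factor per library (largest deviation 0.0543). Per the submitters' processing notes, the build was mm10 and the tools were Bowtie2 2.1.0, HTSeq 0.5.4, DESeq, SAMtools 0.1.19, CASAVA 1.8.2 and FastQC 0.10.0; annotation and strand use are not given in the sources used here. RNA was total RNA made into TruSeq libraries, per the labels' protocols.

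Genes were filtered by filterByExpr (minimum count 10, total 15), which left 13294, scaled by TMM and fitted in edgeR 4.0.16 (R 4.3.3) as 8 groups over 24 libraries (16 residual degrees of freedom, prior count 0.125), tested by quasi-likelihood with Benjamini-Hochberg adjustment at 0.05. Equivalence took a pair of one-sided Wald tests against 2-fold (1.5-fold as an alternative), adjusted likewise. Log2 pair differences added 0.5 counts. Samples were grouped by treatment and genotype from the labels.

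Same-numbered WT FN and WT LPS 10 libraries deviated together from their group means over 9582 genes (r = 0.968, 0.907 and 0.889; other numbers -0.811 to 0.401), so the numbers pair the samples, as the data and not the labels show. A fit with 6 blocks, replicate within genotype, has 12 residual degrees of freedom. An exact permutation test of 3 against 3 cannot go below 0.1. If preparations were not separate animals, p-values measure only the spread between these samples.

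Alternatives were RLE scaling, DESeq2 1.42.0, limma 3.58.1 on log2 of the deposited signal plus 1, other filters, Rn45s left out, the compared groups alone, other blocks and each library left out; combinations with the block were chosen after seeing the data. Scripts were tested on simulated data. The comparison, gene lists and named genes were chosen with earlier results of these data known. Genes were named as 21 inflammatory, receptor and microglial genes; the 10 highest and 10 lowest genes of at least 5 CPM by the smallest of their pair differences; called genes; up to 3 abundant and 2 one-sided members of each list; the 10 with the smallest p for the difference between genotypes; and genes over 1% of a library. Promoters came from RefSeq (GRCm38.p6), where 143 of 193 named genes matched. Some genes named by these rules are not reported here.

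Lists not described in the report gave these medians of fibronectin minus LPS 10 with the preparation in the model, with 0 genes called in each: immediate early genes 0.01, other Toll-like receptors -0.02, myeloid transcription factors 0.05, glycolysis and hypoxia 0.07, MHC class I 0.04, MHC class II and costimulation -0.03, phagocytosis 0.01, lysosome 0.03, Nrf2 0.02, metallothionein and iron -0.08, heat shock and unfolded protein response 0.03, cell cycle 0.03 and oxidative phosphorylation 0.02.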

Additional observations from a re-analysis of the deposited data

Results flagged for a closer look

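The difference of fibronectin minus LPS 10 ng/ml was itself different between CD14-deficient and wild-type cells in 784 genes (edgeR, interaction at an adjusted p under 0.05). Among the genes named, cytokine and chemokine genes had the more negative value in CD14-deficient cells: Il6 -6.45, Il19 -5.95, Il12b -5.14, Il27 -4.91, Ifnb1 -4.78, Cxcl10 -4.44, Ccl5 -4.09, Cxcl1 -3.51, Il1b -3.45, Tnf -2.46 and Il10 -1.88 on the log2 scale. The antiviral genes Rsad2 and Slfn8 had -5.18 and -2.93. The enzymes Nos2 and Ptgs2 had -4.49 and -4.18, and Sphk1 had -3.58. Others on the negative side were Nipal1 -3.76, Ccrl2 -3.50, AW011738 -3.23, Gem -2.95, Fam46a -2.49, Irs2 -2.45, Grhl1 -2.37, Map3k5 -1.92 and Tmem39a -1.78. On the positive side were Cx3cr1 with 1.53 and Mfsd9 with 1.04. In wild-type cells, none of the 13294 genes was called between the 2 agents in the same fit.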

How the results depend on the processing

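No gene was called between WT FN and WT LPS 10 in the fits without a block, with either replicate block over 24 libraries, with RLE scaling, DESeq2, limma, other filters, without Rn45s, or without any 1 of the 6 libraries (0 to 0); the exceptions were 16 genes for the 6 libraries alone with a replicate block and 1 for DESeq2 with the nested replicate block, the latter added after seeing the data. Genes within 2-fold numbered 8354 to 8590 without 1 library, and 6130 were within 1.5-fold. The replicate block nested in genotype gave 7781 calls for WT FN against LPS 0.1, 5952 for KO FN against KO LPS 10 and 3688 for the difference between genotypes. A block shared by the genotypes gave 3539 and 1582 for the last 2, the compared groups alone 1034 and 512, the groups alone with a block 5852 and 4558, and DESeq2 1178 for the last. Leaving out 1 library gave 1479 to 1944 for KO FN against KO LPS 10, 410 to 808 for the difference between genotypes, 5927 to 6318 for WT FN and 5868 to 6196 for WT LPS 10 against untreated, and 3049 to 4158 against LPS 0.1. Against untreated cells the nested block raised the calls from 6570 to 9326 for WT LPS 10 and from 6670 to 9573 for WT FN. Depth limits genes under 5 CPM, of which 1720 of 4165 were not held within 2-fold with the block.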
